A study of Mus musculus with 4 samples.

Results

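The genes described here are 10 Krüppel-like factors, Klf2, Klf3, Klf4, Klf5, Klf6, Klf7, Klf9, Klf10, Klf13 and Klf15, followed by cell class and day after wire injury of the mouse carotid artery. They were taken by name, without use of their values, as 10 of the 31053 genes listed in the count matrices, of which 20506 had at least 1 count. All 10 had counts in the cells kept.

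Krüppel-like factors are transcription factors that bind GC-rich and CACCC elements through zinc fingers at the end of the protein. Klf2 and Klf4 are known as genes that laminar flow raises in endothelium through the kinase ERK5 and MEF2 factors, and Klf2 also keeps T cells quiescent and able to leave tissue. Klf4 is known from the phenotypic switch of smooth muscle cells, Klf6 from inflammatory and wound responses, and Klf9 and Klf15 as direct targets of the glucocorticoid receptor. Klf2, Klf4 and Klf6 are also among the genes known to be raised while tissue is being digested into single cells.

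Cells came from carotid arteries of C57BL/6 mice, aged 11 weeks at injury, before injury (day 0) and 3, 7 and 14 days after a wire was passed through the left carotid. There was 1 single-cell RNA-seq library per day. The study's methods give male mice, several pooled carotids for each day after injury and removal of thrombosed vessels. All 4 libraries shared an enzymatic digestion of 1 h, a removal of dead cells and a 10x Genomics 3′ kit with unique molecular identifiers (UMIs, which count RNA molecules).

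Because there was 1 library per day, no difference between days could be tested against the spread between animals. Levels are CPM (the UMIs of a gene per 1000000 UMIs) of the counts summed over the cells of a class, with exact Poisson 95% intervals, and ratios carry exact conditional binomial 95% intervals. These intervals cover counting error only. A member was called higher or lower where its ratio reached 2 or fell to 0.5, and the share of all genes called the same way is given beside each count of members. Classes were named from fixed marker genes and are written as X-like.

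The 5408 cells kept were 281, 1405, 2693 and 1029 at days 0, 3, 7 and 14, from libraries of 2672722 to 27973418 UMIs. At day 0, 230 cells were fibroblast-like and only 12 smooth muscle-like. Libraries shared 217 cell barcodes, of which 152 were shared by days 0 and 3 and 64 by days 7 and 14. In 214 of them the shallower copy held under 10% of the UMIs of the deeper one, and those copies were removed. Of the kept cells, 8.84% belonged to clusters that could not be named.

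The sequence before the transcription start is shown for 4 members on which the results below turn, Klf2 and Klf4 for endothelial-like and T cell-like cells and Klf9 and Klf15 for fibroblast-like cells. The stretches are the 150 bases before the start in RefSeq (build GRCm38.p6), at chr8:72318912-72319061 on the plus strand for Klf2, chr4:55532476-55532625 on the minus strand for Klf4, chr19:23141076-23141225 on the plus strand for Klf9 and chr6:90462426-90462575 on the plus strand for Klf15. Capitals mark matches to the motifs searched on either strand.
Klf2: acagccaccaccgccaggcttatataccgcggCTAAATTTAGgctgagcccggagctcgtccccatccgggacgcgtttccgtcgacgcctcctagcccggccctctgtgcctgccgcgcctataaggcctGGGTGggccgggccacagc
Klf4: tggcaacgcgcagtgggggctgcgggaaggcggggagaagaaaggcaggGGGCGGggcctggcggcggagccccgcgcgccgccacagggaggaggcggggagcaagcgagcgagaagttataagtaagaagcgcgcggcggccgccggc
Klf9: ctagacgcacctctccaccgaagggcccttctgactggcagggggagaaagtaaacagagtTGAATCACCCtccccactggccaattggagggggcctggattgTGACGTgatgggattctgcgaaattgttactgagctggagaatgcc
Klf15: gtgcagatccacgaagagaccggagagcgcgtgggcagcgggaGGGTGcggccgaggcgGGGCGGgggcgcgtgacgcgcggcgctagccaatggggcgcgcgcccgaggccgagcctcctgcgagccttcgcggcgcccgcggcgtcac
In the Klf2 stretch the capitals are a MEF2 box and a CACCC element read on the other strand. In the Klf4 stretch they are a GC box, GGGCGG. In the Klf9 stretch an AP-1 element, TGANTCA, ran into a CACCC element, and the second run is TGACGT, the core of a cyclic AMP response element. In the Klf15 stretch they are a CACCC element on the other strand and a GC box.

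The promoter table matched 8 of the 10 members, all but Klf5 and Klf10, with 300 bases each. The MEF2 box was found in 1 of the 8, Klf2, against 3.19% of all 32851 promoters of that length. TGANTCA was found in 1, Klf9, against 7.81%, and TGACGT in 2, Klf9 and Klf13, against 7.51%. GC boxes were held by 7 of 8 members against 35.7% of promoters, and CACCC elements by 6 against 57.5%. The full cyclic AMP element TGACGTCA (1.79% of promoters), the CArG box (1.63%) and the full palindromic glucocorticoid response element (0.00913%) were found in none of the 8. These are matches of letters and not measured sites.

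**Figure D1:**
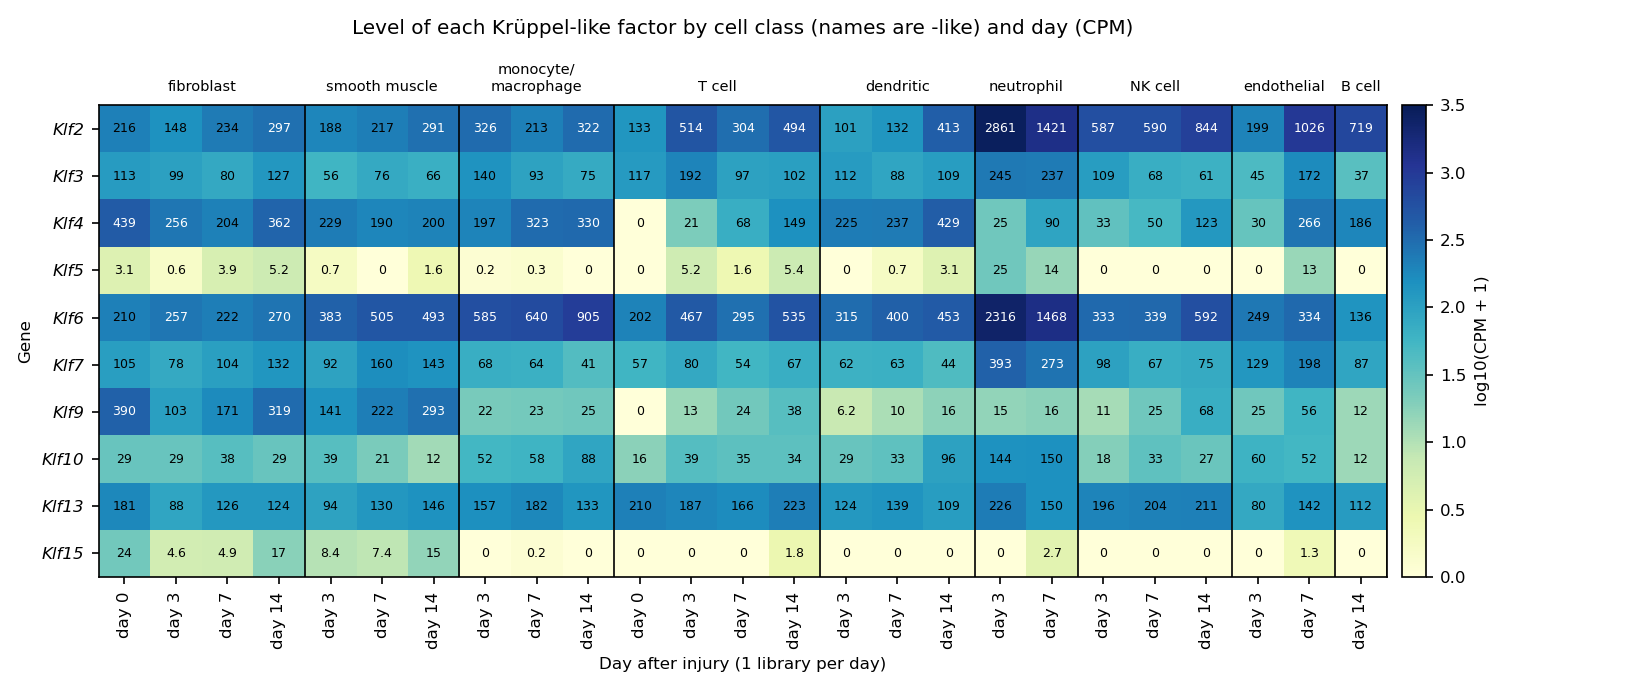
Level of each of the 10 members (rows) in each named cell class and day with at least 20 cells (columns), as CPM of summed UMIs, coloured on a log10(CPM + 1) scale. Klf2 and Klf6 were highest in neutrophil-like cells, and Klf9 and Klf15 were highest in fibroblast-like cells at day 0.

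The members fell into different patterns across the 24 class-by-day groups with at least 20 cells and 100000 UMIs, which leave out the B cell-like cells of day 14. Klf2 ranged from 101 CPM in dendritic-like cells at day 3 to 2861 CPM in neutrophil-like cells at day 3. Klf6 ranged from 202 CPM in T cell-like cells at day 0 to 2316 CPM in neutrophil-like cells at day 3. Klf4, like Klf9 and Klf15, was highest in fibroblast-like cells at day 0. It stood there at 439 CPM, with dendritic-like cells at day 14 at 429 CPM and T cell-like cells at day 0 at 0 UMIs.

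Klf9 was highest in fibroblast-like cells at day 0, at 390 CPM, against a median over groups of 24.8 CPM. Klf13 was the most even of the well counted members, between 79.6 CPM in endothelial-like cells at day 3 and 226 CPM in neutrophil-like cells at day 3. Klf5, known best from epithelium and growing smooth muscle, gave only 134 UMIs over all 24 groups, and its highest level was 25.2 CPM in neutrophil-like cells. Klf15 gave 315 UMIs and stayed at or under 2.73 CPM in every immune group.

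In fibroblast-like cells, the glucocorticoid-inducible members Klf9 and Klf15 were 2-fold or more lower than before injury at days 3 and 7 and were higher again at day 14. Klf9 (ENSMUSG00000033863) stood at 390 CPM before injury (364 to 416), followed by 103 on day 3 (94.9 to 112), 171 on day 7 (161 to 182) and 319 on day 14 (308 to 331). No intervals of these 4 levels overlapped, so the order of days was beyond counting error. Ratios to day 0 on the 3 later days were 0.265 (0.238 to 0.295), 0.439 (0.401 to 0.481) and 0.82 (0.76 to 0.886). Klf9 is a repressor induced by steroid and thyroid hormones.

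Klf15 (ENSMUSG00000030087), which restrains fibrosis and growth in heart and vessel and regulates metabolism, showed the same order at a far lower count. Its 4 levels by day were 24.3 CPM (18.3 to 31.7), then 4.59 (2.97 to 6.77), 4.92 (3.32 to 7.03) and finally 16.7 (14.1 to 19.6). Days 3 and 7 overlapped, and both lay below days 0 and 14. From day 7 to day 14 the ratio was 3.4 (2.28 to 5.21) for Klf15 and 1.87 (1.74 to 2.01) for Klf9.

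Klf4 (ENSMUSG00000003032) stood at 439, 256, 204 and 362 CPM on the 4 days in fibroblast-like cells, with ratios to day 0 of 0.582 (0.536 to 0.633), 0.464 (0.427 to 0.506) and 0.824 (0.766 to 0.886). It was lowest at day 7, when its level was called lower. Klf13 (ENSMUSG00000052040), a regulator of chemokine and metabolic genes, stood at 181, 88.1, 126 and 124 CPM. It was called lower at day 3 alone, with a ratio of 0.487 (0.426 to 0.557).

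Klf2 (ENSMUSG00000055148) stood at 216, 148, 234 and 297 CPM in fibroblast-like cells. It was below day 0 at day 3, with a ratio of 0.684 (0.61 to 0.768), and above it at day 14, with 1.38 (1.25 to 1.52). Within the clusters compared at days 0 and 14, given below, Klf2 was lower at day 14 or not separated from day 0. Klf6 (ENSMUSG00000000078) stood at 210, 257, 222 and 270 CPM, with ratios between 1.06 and 1.28. Klf3 (ENSMUSG00000029178), a repressor that works through the corepressor CtBP, had ratios of 0.872, 0.706 and 1.12. Klf7 (ENSMUSG00000025959), known from neurons and adipose tissue, had ratios of 0.744, 0.989 and 1.26. Klf10 (ENSMUSG00000037465), an early gene of TGF-β signalling, had ratios of 0.994, 1.3 and 1.

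**Figure D2:**
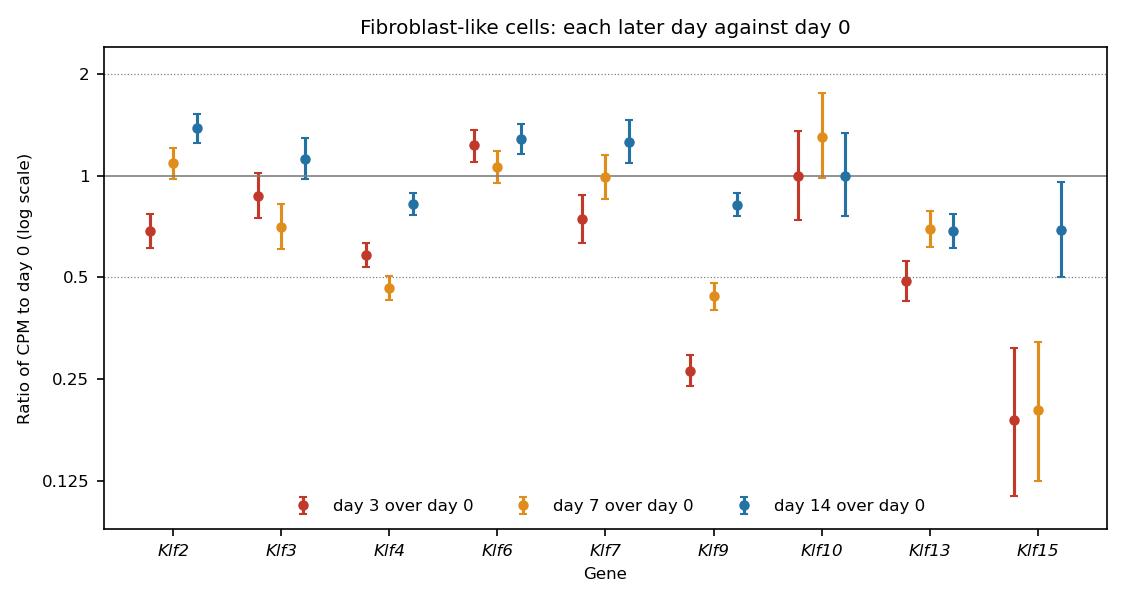
Ratio of each member's CPM in fibroblast-like cells to its CPM at day 0 (vertical axis, log scale) at days 3, 7 and 14, with 95% counting intervals and dotted lines at 0.5 and 2. Klf9 and Klf15 lay below 0.5 at days 3 and 7, and all members shown lay between 0.5 and 2 at day 14.

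Counted over the 9 members with enough UMIs, 3 were called lower and none higher at day 3 (Klf9, Klf13, Klf15), where 10.3% of all genes compared were called lower and 8.92% higher. At day 7, 3 were called lower and none higher (Klf4, Klf9, Klf15), against 8.42% of genes lower and 8.8% higher. At day 14 none was called, against 3.96% lower and 5.48% higher. The median log2 ratio of the members was -0.55, -0.50 and 0.00 on the 3 days, beside -0.07, -0.03 and -0.07 for all genes compared.

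The depth of fibroblast-like cells moved with these ratios. The median depth by day was 8415, 40712, 23321 and 18234 UMIs per cell. Cells above 20000 UMIs held 24.4% of the class's UMIs at day 0 and 95.3%, 89% and 65% at days 3, 7 and 14. Without those cells, Klf9 had ratios to day 0 of 0.459 (0.332 to 0.619), 0.603 (0.504 to 0.718) and 0.931, so that it was called lower at day 3 only.

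Klf15 then rested on 1 UMI at day 3, with a ratio of 0.2 (0.00492 to 1.19), and on 0.454 (0.155 to 1.1) at day 7, which counting error could not separate from 1. Klf4 had 1.07 (0.847 to 1.33) at day 3 and 0.832 (0.703 to 0.981) at day 7 and was no longer called. Klf13 turned from -1.04 to 0.15 on the log2 scale at day 3, and Klf10 was called higher at day 7, with a ratio of 2.44 (1.56 to 3.8). The part of depth in the lower levels was not tested further.

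The share of cells with a UMI, after each cell was thinned to 1000 UMIs, differed little between days for Klf4. For Klf9 it was lowest at day 3, like the CPM, but highest at day 14, whereas the CPM was highest at day 0. For Klf9 it was 21.6%, 11.7%, 19.5% and 27.9% on the 4 days in fibroblast-like cells, against 1.79% in neutrophil-like and 2.91% in monocyte/macrophage-like cells at day 3. For Klf4 it was 24.5%, 25.8%, 21% and 25.9%, against 1.35% in neutrophil-like cells at day 3. Without thinning the Klf4 share at day 0 was 62.2%.

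Clusters within the fibroblast-like class differed in these members. None of the 10 members was used to build the clusters. At day 0 the class was mostly 1 cluster led by Rbp4, with 204 of 230 cells and 81% of the class's UMIs. A cluster led by Saa3, an acute phase gene, with a median of 55775 UMIs per cell, held 50.2% of the class's UMIs at day 3. A cluster led by Eln, which encodes elastin, held 40.3% at day 7, and a cluster led by C1qtnf3 held 58.7% at day 14. The days therefore compared different mixtures of cells. Without the deep clusters led by Saa3 and by cell cycle genes, Klf9 had log2 ratios of -1.33 at day 3 and -0.78 at day 7 and Klf15 ones of -2.38 and -1.82, so that at day 7 Klf15 alone was still called lower. Klf13 and Klf4 were no longer called, with log2 ratios of -0.43 at day 3 and -0.88 at day 7.

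Within the Rbp4-led cluster, Klf9 stood at 416 CPM at day 0 and 466 CPM at day 14, with a ratio of 1.12 (0.991 to 1.27), and Klf15 at 25 and 26.3 CPM. Counting error did not separate these days. In the Eln-led cluster, which had 1 cell at day 0 and 42, 108 and 121 cells later, Klf9 stood at 155, 219 and 437 CPM at days 3, 7 and 14. The ratio of day 14 to day 3 was 2.81 (2.38 to 3.32) for Klf9 and 4.76 (1.88 to 15.4) for Klf15. Thus Klf9 was higher at day 14 than at day 3 within this cluster as well.

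In the Saa3-led cluster Klf9 was at 92.8 CPM at day 3, which was 0.597 (0.49 to 0.727) of the Eln-led cluster on the same day. The C1qtnf3-led cluster held Klf9 at 256 CPM at day 7 and 279 CPM at day 14.

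Klf4 and Klf2 were set apart by another cluster, led by Igfbp5, Sema3c and Pi16, of which Pi16 is a marker of adventitial fibroblasts. Its Klf4 level was 1139 CPM at day 0 in 25 cells and 873 CPM at day 14 in 45 cells. Against the Rbp4-led cluster of the same day this was 4.04-fold (3.55 to 4.59) at day 0 and 3.3-fold (2.84 to 3.84) at day 14. For Klf2 the corresponding ratios were 4.42 (3.68 to 5.31) and 2.01 (1.64 to 2.47), and for Klf3 they were 3.24 (2.5 to 4.2) and 5.22 (3.92 to 7.06). The Igfbp5-led cluster was also deeper, with medians of 19520 and 22358 UMIs per cell at days 0 and 14. The Rbp4-led cluster had 7970 and 6734, and the part of depth in these ratios was not tested.

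Klf9 went the other way between these clusters, at 0.641 (0.519 to 0.785) at day 0 and 0.372 (0.306 to 0.449) at day 14. Klf15 stood at 22.2 CPM in the Pi16 cluster at day 0 and at 1.15 CPM, from 1 UMI, at day 14. Within the Rbp4-led cluster Klf4 was at 282 CPM at day 0 and 264 CPM at day 14, a ratio of 0.937 (0.798 to 1.1) that counting error did not separate from 1. For Klf2 the ratio of day 14 to day 0 was 1.24 (0.998 to 1.53) in the Rbp4-led cluster, also not separated from 1. In the Igfbp5-led cluster it was 0.563 (0.472 to 0.671). The higher Klf2 of the whole class at day 14 was thus not separated from 1 or was reversed within these clusters.

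**Figure D3:**
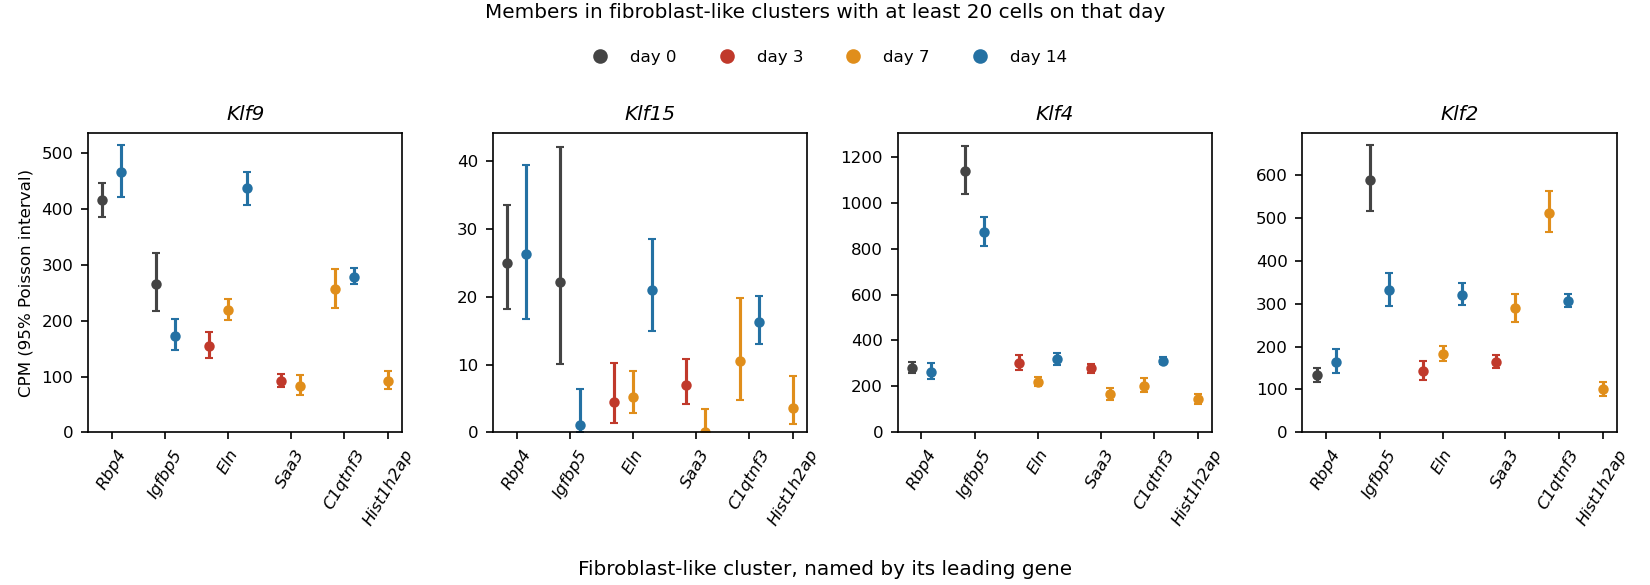
CPM of Klf9, Klf15, Klf4 and Klf2 (vertical axes, each from 0) by day in 6 fibroblast-like clusters, named by a leading gene, with 95% counting intervals. In the Eln cluster Klf9 was at 155 CPM on day 3 and 437 CPM on day 14, and Klf4 was highest in the Igfbp5 cluster at 1139 CPM on day 0.

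Other genes known to be raised by the glucocorticoid receptor were compared in the same cells. Of 9 compared, 3 were called lower and 1 higher at day 3, 4 lower and none higher at day 7, and 6 lower and none higher at day 14, with median log2 ratios of -0.72, -0.98 and -1.20. Tsc22d3, which encodes the anti-inflammatory protein GILZ, stood at 242, 44.8, 57.6 and 70.2 CPM. Zbtb16 stood at 71.1, 14.1, 11.6 and 10.5 CPM. Unlike Klf9 and Klf15, both were still 2-fold or more lower at day 14, with log2 ratios of -1.78 and -2.76. The called exception in direction was Mt2, a metallothionein, at a log2 ratio of 2.01 at day 3.

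Immediate early genes, which dissociation is known to raise, summed to 6883, 6661, 9840 and 14254 CPM in fibroblast-like cells. Of 18 compared, 3, 5 and 11 were called higher at days 3, 7 and 14 and none lower. Their part in the levels of Klf2, Klf4 and Klf6 was not tested. Of 4 compared genes of the ERK5 and MEF2 branch, Mef2c was called lower at day 3, with a log2 ratio of -1.07, and none at days 7 and 14. Of 11 other genes of the family, only Sp1 and Sp3 had enough UMIs to be compared, and neither was called. None of the 6 or 7 compared corepressors and ubiquitin ligases of the family was called.

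In smooth muscle-like cells, Klf9 was higher and Klf10 lower at day 14 than at day 3, the first day with at least 20 such cells. The class had 12, 102, 79 and 75 cells on the 4 days. Klf9 stood at 141, 222 and 293 CPM at days 3, 7 and 14, with ratios to day 3 of 1.57 and 2.07 (1.79 to 2.4). Klf10 stood at 38.7, 21.3 and 11.7 CPM from 106, 26 and 15 UMIs, with ratios of 0.551 and 0.302 (0.163 to 0.521). The 12 smooth muscle-like cells of day 0 gave Klf9 at 432 CPM and Klf15 at 50.2 CPM and were not compared.

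Klf4, the member known for smooth muscle modulation, stood at 229, 190 and 200 CPM at days 3, 7 and 14. Klf2 stood at 188, 217 and 291 CPM, with a ratio of 1.55 (1.35 to 1.77) at day 14. Klf6 stood at 383, 505 and 493 CPM, and Klf7 at 92.4, 160 and 143 CPM. Klf15 stood at 8.4, 7.38 and 14.8 CPM, too few UMIs for a call.

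Of 8 members compared in smooth muscle-like cells, none was called at day 7, where 4.24% of all genes were called higher and 2.58% lower. At day 14, 1 was called higher and 1 lower, against 5.03% and 7.15% of genes. Median log2 ratios of the members were 0.43 and 0.49, beside 0.03 and -0.04 for all genes. Cells above 20000 UMIs held 89.3%, 68.9% and 59.3% of the class's UMIs on the 3 days. Without them the ratio of Klf9 at day 14 was 1.93 (1.4 to 2.69), just short of the call, that of Klf2 was 0.968 (0.699 to 1.35) and that of Klf6 0.748 (0.612 to 0.914). Klf10 then rested on 4 UMIs at day 3 and 4 at day 14. At day 7, Klf4 was called higher without them, with 2.6 (1.77 to 3.92), and so was Klf10, with 3.28 (1.07 to 13.4). Fibroblast markers summed to 3429, 6608 and 4067 CPM in this class, with none of 9 at 0, and their part was not tested.

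Klf9 was higher in smooth muscle-like than in fibroblast-like cells at day 3, by 1.37-fold (1.2 to 1.56), and at day 7, by 1.3-fold (1.13 to 1.48). Without cells above 20000 UMIs, Klf9 stood at 174 CPM (129 to 229) in smooth muscle-like and 181 (132 to 241) in fibroblast-like cells at day 3, and at 261 (212 to 317) and 238 (202 to 277) at day 7, with overlapping intervals on both days. At day 14 fibroblast-like cells of all depths stood at 1.09 (0.979 to 1.22) of smooth muscle-like cells, which counting error did not separate. At day 7 the next class below was endothelial-like, with fibroblast-like cells 3.05-fold (2.24 to 4.25) above it. The 5 immune classes of day 7 held Klf9 at 10.2 to 24.7 CPM, and no neighbours among them were separated. Classes further apart could differ. Monocyte/macrophage-like cells held 228 UMIs and dendritic-like cells 44, with neutrophil-like cells between them on 6 UMIs. Without cells above 20000 UMIs the former stood at 26.8 CPM (23.1 to 30.9) and dendritic-like cells at 10.4 CPM (7.24 to 14.5).

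In monocyte/macrophage-like cells no member was called at day 7 or day 14 against day 3. All genes compared were called higher in 3.04% and lower in 2.86% at day 7, and in 4.75% and 6.23% at day 14. Klf4, which in monocytes promotes differentiation, stood at 197, 323 and 330 CPM, with ratios of 1.64 and 1.68. Klf6, a promoter of the inflammatory program of macrophages, stood at 585, 640 and 905 CPM and had a ratio of 1.55 (1.45 to 1.65) at day 14. Both were above day 3 at day 14 beyond counting error, also without cells above 20000 UMIs, with ratios of 1.31 (1.16 to 1.49) for Klf4 and 1.6 (1.5 to 1.72) for Klf6.

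Klf2, a restraint on monocyte activation, stood at 326, 213 and 322 CPM, and Klf3 at 140, 92.8 and 75 CPM, with a ratio of 0.538 (0.439 to 0.653) at day 14. Klf10 stood at 52.4, 58.4 and 88.4 CPM. Of 18 immediate early genes, 11 were called higher at day 7 and 16 at day 14, with median log2 ratios of 1.14 and 1.69. The 8 members had medians of 0.12 and 0.09, beside -0.14 and -0.17 for all genes. The part of the immediate early genes in the Klf4 and Klf6 levels was not tested.

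The macrophage clusters differed from each other in Klf4 and Klf2. A cluster led by Ccl6 and Arg1 held 51.2% of the class's cells at day 3, with Klf2 at 470 CPM and Klf4 at 255 CPM. A cluster led by Ms4a7 and C1qa held 55.5% of cells at day 14. At day 3 its Klf2 level was 0.457 (0.379 to 0.546) and its Klf4 level 0.402 (0.306 to 0.519) of the Ccl6-led cluster.

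In the Ms4a7-led cluster Klf4 stood at 102, 258 and 286 CPM and Klf6 at 599, 770 and 1000 CPM at days 3, 7 and 14. Some other clusters of the class went the other way for Klf6 from day 3 to day 7. Klf6 had ratios of 0.78 (0.693 to 0.876) in the Ccl6-led cluster and 0.705 (0.604 to 0.822) in a cluster led by the interferon-induced gene Rsad2. Klf4 was higher at day 7 in the Rsad2-led cluster too, with a ratio of 2.17 (1.49 to 3.2). Counting error did not separate it from 1 in the Ccl6-led cluster, at 1.14 (0.968 to 1.33), or in a cluster led by Retnla, at 0.643 (0.395 to 1.06). At day 7 a cluster led by Plac8 and Il1b, genes of recruited monocytes, held 42.9% of the class's cells. Its Klf4 level, 460 CPM, was 1.78-fold (1.64 to 1.93) that of the Ms4a7-led cluster.

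Neutrophil-like cells held the highest Klf2 and Klf6 of any group. This class had 234 cells at day 3 and 119 at day 7, and none at days 0 and 14. Klf2 stood at 2861 CPM at day 3 and 1421 CPM at day 7, a ratio of 0.497 (0.45 to 0.547). Klf6 stood at 2316 and 1468 CPM, a ratio of 0.634 (0.573 to 0.699). At day 3 Klf2 was 4.88-fold (4.15 to 5.76) above the next class, NK cell-like, and Klf6 was 3.96-fold (3.73 to 4.21) above the next, monocyte/macrophage-like.

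After thinning, 73.1% of neutrophil-like cells at day 3 and 71% at day 7 had a Klf6 UMI. Klf7, at 393 CPM at day 3, was 3.04-fold (2.03 to 4.74) above the next class, endothelial-like. Klf3 stood at 245 and 237 CPM, Klf10 at 144 and 150 CPM and Klf13 at 226 and 150 CPM. Klf4 was low at day 3, at 25.2 CPM, and 3.57-fold (1.93 to 6.83) higher at day 7, at 90 CPM. Over the same days the summed fibroblast markers went from 644 to 1157 CPM and monocyte/macrophage markers from 1102 to 1462 CPM, and their part in the Klf4 difference was not tested. Immediate early genes summed to 40423 and 42415 CPM, and mitochondrial genes took 0.627% and 1.19% of UMIs.

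In dendritic-like cells, of which there were 177, 348 and 42 at days 3, 7 and 14, Klf2 stood at 101, 132 and 413 CPM. Its day 14 level was 4.1-fold (3.31 to 5.05) that of day 3. Klf10 was 3.35-fold (2.13 to 5.13) higher at day 14, at 96.3 CPM, and Klf4 stood at 225, 237 and 429 CPM. Without cells above 20000 UMIs the day 14 ratios were 4.15 (3.27 to 5.25) for Klf2 and 4.46 (2.62 to 7.55) for Klf10. Immediate early genes went from 5542 to 18995 CPM between days 3 and 14, and their part was not tested.

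A cluster led by Ccr7, Ccl22 and Fscn1, genes of migrating dendritic cells, differed from a cluster led by Cd209a in Klf2, Klf4, Klf6 and Klf13 on both days 3 and 7. Klf6 was 2.78-fold (2.38 to 3.23) higher in the Ccr7-led cluster at day 3 and 3.93-fold (3.55 to 4.34) at day 7, where it reached 1151 CPM. Klf4 was lower in it, at 30.5 against 246 CPM at day 3, a ratio of 0.124 (0.0592 to 0.23), and at 164 against 244 CPM at day 7. Klf2 was also lower, with ratios of 0.516 and 0.527. Klf13 stood at 12.2 against 137 CPM at day 3 and at 39.7 against 150 CPM at day 7.

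In T cell-like cells, Klf2 was higher on each day after injury than at day 0, and Klf4 went from no UMI to 149 CPM. The class had 23, 65, 376 and 96 cells. The day 0 cells stood apart: 7 of the 23 belonged to a cluster led by cell cycle genes and held 57% of the class's UMIs, and day 0 alone held UMIs of Dntt (114) and Rag1 (51), genes of immature lymphocytes. Later libraries held 0 UMIs of either gene in this class. For this reason day 3 is given as a second reference, chosen after the values were seen.

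Klf2 stood at 133, 514, 304 and 494 CPM, with ratios to day 0 of 3.85 (2.65 to 5.75), 2.28 (1.61 to 3.34) and 3.7 (2.57 to 5.48). Day 7 was below days 3 and 14. Without cells above 20000 UMIs the log2 ratios of Klf2 were 1.42, 0.78 and 1.34, so that its call at day 7 was lost. Klf4 had 0, 8, 167 and 82 UMIs, or 0, 20.8, 67.6 and 149 CPM, where a count of 0 at day 0 allowed up to 12.1 CPM. Against day 3, Klf4 was 3.25-fold (1.61 to 7.66) higher at day 7 and 7.17-fold (3.47 to 17.2) at day 14, and without cells above 20000 UMIs 3.54-fold (1.75 to 8.34) and 7.09-fold (3.4 to 17.1).

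Klf4 levels were thus ordered by day from day 3 on. After thinning, 0%, 0%, 7.51% and 9.78% of T cell-like cells had a Klf4 UMI. Summed monocyte/macrophage markers stood at 984, 966 and 958 CPM at days 3, 7 and 14 with 2, 0 and 2 of 14 at 0, nearly level over those days. Fibroblast markers, at 135, 427 and 544 CPM with 2, 0 and 0 of 9 at 0, and immediate early genes, at 7034, 6836 and 12167 CPM, did differ between days, and their part in it was not tested.

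Klf6 stood at 202, 467, 295 and 535 CPM, with ratios to day 0 of 2.31, 1.46 and 2.65. Klf9 had no UMI at day 0 and stood at 13, 24.3 and 38.1 CPM later. Klf13, which in T cells controls the chemokine Ccl5, stood at 210, 187, 166 and 223 CPM. Immediate early genes summed to 2661 CPM at day 0 in this class. Against day 0, 11 of 15, 14 of 17 and 17 of 17 compared were called higher at days 3, 7 and 14, and none lower. Their median log2 ratios were 1.48, 1.66 and 2.46. Their part in the ratios of Klf2 and Klf6 to day 0 was not tested.

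Of 5 members compared in T cell-like cells at day 3, 2 were called higher (Klf2, Klf6), against 16.7% of all genes higher and 15.9% lower. At day 7 it was 4 of 8 (Klf2, Klf4, Klf9, Klf10), against 13.8% higher and 18.5% lower. At day 14 it was 5 of 8, with Klf6 added, against 16% higher and 15.1% lower. No member was called lower, and Klf4 and Klf9 were set against the 12.1 CPM that 0 UMIs allow. Klf10 rested on 4 UMIs at day 0, and the interval of its ratio included 1 on both days. Without cells above 20000 UMIs, 1 member (Klf2) was called at day 3, 1 (Klf4) at day 7 and 3 (Klf2, Klf4, Klf9) at day 14. The medians of the members were 0.71, 0.77 and 1.25 on the log2 scale, beside -0.01, -0.19 and -0.03 for all genes.

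The T cell clusters differed most in Klf2. A cluster led by Trdc, which encodes the δ chain of the T cell receptor, and Cxcr6, a receptor of tissue-resident cells, held Klf2 at 67.3 CPM at day 7 and 53.1 CPM at day 14. The cluster led by Icos and Cd4 held it at 409 and 493 CPM. The ratio of the former to the latter was 0.165 (0.101 to 0.256) at day 7 and 0.108 (0.0448 to 0.224) at day 14. In a cluster led by Ccl5 and Cd8 genes, Klf4 stood at 8.31, 57.9 and 209 CPM at days 3, 7 and 14, the first from 2 UMIs, and the ratio of day 14 to day 7 was 3.6 (2.34 to 5.48). The same ratio was 2.28 (1.38 to 3.69) in the Icos-led cluster and 0.887 (0.45 to 1.67) in the Trdc-led cluster, so that the higher Klf4 at day 14 was not seen in each T cell cluster.

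Among genes that Klf2 is known to raise in T cells, S1pr1, the receptor for leaving tissue, stood at 48.5, 174, 103 and 131 CPM, with ratios to day 0 of 3.58, 2.12 and 2.69. The integrin gene Itgb7 stood at 101, 319, 310 and 426 CPM. Both were compared with the same day 0 cells.

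NK cell-like cells were absent at day 0 and numbered 58, 159 and 34 later. Klf2 stood at 587, 590 and 844 CPM, with a ratio of day 14 to day 3 of 1.44 (1.13 to 1.83). Klf4 stood at 32.6, 49.5 and 123 CPM, with a ratio of 3.76 (1.6 to 9.5) that rested on 9 UMIs at day 3 and 18 at day 14. Klf6 stood at 333, 339 and 592 CPM, with 1.78 (1.31 to 2.41). Immediate early genes summed to 6373, 8360 and 15140 CPM over the same days, and fibroblast markers to 130.4, 475.4 and 789.7 CPM. Their part in these levels was not tested. In the 21 B cell-like cells of day 14 Klf2 stood at 719 CPM.

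Endothelial-like cells, the class in which Klf2 and Klf4 are best known, numbered 6, 40, 55 and 18. Klf2 stood at 199 CPM at day 3 and 1026 CPM at day 7, a ratio of 5.16 (3.75 to 7.27). Klf4 stood at 29.8 and 266 CPM, from 6 and 199 UMIs, a ratio of 8.91 (4.02 to 24.6). Klf3 was 3.85-fold (1.97 to 8.61) higher at day 7, and Klf6, at 249 and 334 CPM, was not separated, with 1.34 (0.988 to 1.86).

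The 6 cells of day 0 gave Klf2 at 1337 CPM and Klf4 at 535 CPM, and the 18 cells of day 14 gave 1191 and 376 CPM. Thus day 3 was the day with the lowest values of both, with too few cells at days 0 and 14 for a ratio. The endothelial-like cells were shallow, with medians of 1112 and 1706 UMIs at days 3 and 7, and few deep cells carried most counts: 2 cells above 20000 UMIs held 69.7% of the class's UMIs at day 3 and 10 held 82.6% at day 7. Without them the ratios of day 7 to day 3 were 3.12 (1.96 to 5.19) for Klf2, 9.5 (3.1 to 47.4) for Klf4 and 3.79 (1.89 to 8.62) for Klf6.

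Of 5 compared genes of the ERK5 and MEF2 branch, 1 was called higher and 1 lower at day 7 against day 3. The higher one was Mef2c, and the lower one is not named here. Mef2c stood at 19.9 and 77.5 CPM, a ratio of 3.89 (1.44 to 14.8), with only 201021 UMIs in the class at day 3. Its part in the Klf2 and Klf4 difference was not tested. The endothelial targets Thbd and Nos3 had ratios of 1.27 (0.769 to 2.21) and 1.27 (0.903 to 1.81), neither separated from 1. Summed immediate early genes went from 4039 to 7876 CPM, and summed fibroblast markers from 537 to 1305 CPM. Smooth muscle markers went from 1035 to 903 CPM. The part of the immediate early genes and fibroblast markers in the Klf2 and Klf4 difference was not tested.

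**Figure D4:**
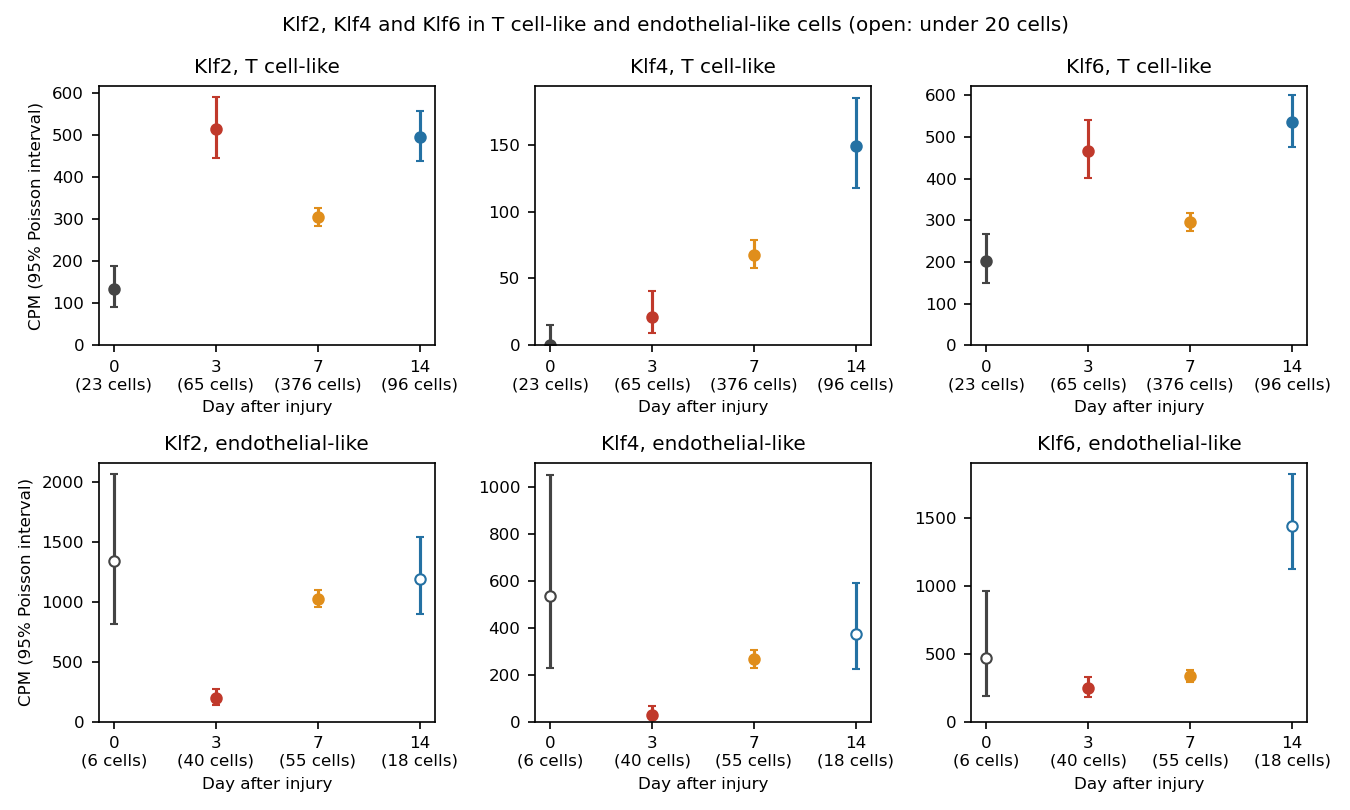
CPM of Klf2, Klf4 and Klf6 (vertical axes) by day in T cell-like and endothelial-like cells, with 95% counting intervals, open symbols marking days with under 20 cells. In endothelial-like cells Klf2 was at 199 CPM on day 3 and 1026 CPM on day 7, and in T cell-like cells Klf4 was at 0 before injury and 149 CPM on day 14.

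At day 7 the classes were ordered by level. Klf2 went from neutrophil-like, endothelial-like, NK cell-like and T cell-like cells, each separated from the next, to fibroblast-like, smooth muscle-like and monocyte/macrophage-like cells, of which neighbours were not separated from each other, and to dendritic-like cells, lowest at 132 CPM. Klf4 was highest in monocyte/macrophage-like cells, by 1.22-fold (1.05 to 1.41) over endothelial-like cells, which were not separated from dendritic-like cells. When cells above 20000 UMIs were left out this order turned, with Klf4 at 469 CPM (358 to 602) in endothelial-like and 351 CPM (338 to 365) in monocyte/macrophage-like cells. With all cells, fibroblast-like and smooth muscle-like cells followed and were not separated, and T cell-like and NK cell-like cells were lowest.

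Klf6 went from neutrophil-like to monocyte/macrophage-like, smooth muscle-like, dendritic-like and NK cell-like cells, each separated from the next, and was lowest in fibroblast-like cells at 222 CPM. Without cells above 20000 UMIs, smooth muscle-like cells, at 622 CPM (545 to 706), overlapped monocyte/macrophage-like cells, at 674 CPM (655 to 693). Endothelial-like cells then stood at 561 CPM (440 to 705), above dendritic-like cells at 426 CPM. Fibroblast-like cells, at 307 CPM (267 to 352), overlapped T cell-like cells, at 314 CPM (291 to 338). Klf7 was higher in endothelial-like, smooth muscle-like and fibroblast-like cells than in the lymphoid and other myeloid classes, which held it at 54.2 to 67 CPM, apart from neutrophil-like cells at 273 CPM. Klf13 was highest in NK cell-like cells at 204 CPM and was not separated from monocyte/macrophage-like cells. When cells above 20000 UMIs were left out, endothelial-like cells held the highest level of both, at 384 CPM (285 to 506) for Klf7 and 261 CPM (181 to 365) for Klf13, whose interval held the NK cell-like level.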

How the data were processed

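Single-cell RNA-seq was measured in 4 libraries of mouse carotid artery, 1 per day. The authors deposited whole-number UMI counts per gene and barcode, made with Cell Ranger (3.0.2 per the file headers), and the labels and methods name the genome build as GRCh38, a human build, so the mouse build used is not known here. Barcodes with under 200 genes or over 20% mitochondrial UMIs (453), the shallower copies of shared barcodes (decided after they were seen) and doublets by scrublet in scanpy 1.11.5 (106, at a set rate of 0.8% per 1000 barcodes, since its own threshold marked 17) were removed. Counts were scaled to 10000 per cell, and 2000 variable genes, without members and list genes, 30 principal components, 15 neighbours and Leiden resolution 1 gave 34 clusters. The marker genes used for naming were not left out of the variable genes. A cluster was named where at least 3 fixed markers passed and its 10 leading genes did not favour another class. Raw UMIs were then summed per class and day.

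A gene was compared where both days held at least 20 UMIs in sum, 1 day reached 20 CPM and each day had 20 cells. The reference was day 0, or day 3 where day 0 had fewer cells. Scripts were tested on simulated data. The members and the gene lists were chosen with earlier results of these data known. All members are described; for other lists, counts and at most 4 called genes with the widest ratios are given, and other genes named in the text were chosen after their values were seen. Likeness to a member was Pearson's r over log2(CPM + 10). No comparisons made by the authors were used. Not every listed gene is reported here. Alternatives were the depth limit, cell filters, clustering, scaling, copies and the fold limit, and those on copies, cell cycle and Saa3 clusters and the T cell reference were added after seeing the data. Library depth was 2672722, 18989081, 27973418 and 13329564 UMIs at days 0, 3, 7 and 14.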

Additional observations from a re-analysis of the deposited data

How the results depend on the processing

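Of 759 recomputed ratios of members, 589 stayed within the counting interval of the reported value, 169 moved outside it and 1 of a called member changed sign, Klf13 in fibroblast-like cells at day 3, to a log2 ratio of 0.15 without cells above 20000 UMIs. Members that were not called also changed sign, such as Klf4 and Klf10 in smooth muscle-like cells at day 7, to 1.38 and 1.72 under the same alternative. The numbers of members called (reported 3, 3 and 0 in fibroblast-like cells at days 3, 7 and 14; 0 and 2 in smooth muscle-like and 0 and 0 in monocyte/macrophage-like cells at days 7 and 14; 2, 4 and 5 in T cell-like cells) did not change with Leiden resolution 0.6, a minimum of 5 UMIs or kept shallower copies. Without cells above 20000 UMIs they were 1 (Klf9) and 1 (Klf10, higher) in fibroblast-like cells at days 3 and 7, 2 and 0 in smooth muscle-like cells and 1, 1 and 3 in T cell-like cells. With each library clustered on its own, which named only 21 fibroblast-like cells at day 0, they were 6, 5 and 4 in fibroblast-like cells, 1 in monocyte/macrophage-like and 2 in T cell-like cells at day 14. With at least 500 genes and at most 10% mitochondrial UMIs, 1 was called in monocyte/macrophage-like cells at day 14. With CPM averaged over cells in place of the sum, 1 (Klf15) was called in fibroblast-like cells at day 7. At 1.5-fold, 3 and 5 were called in smooth muscle-like and 3 and 5 in monocyte/macrophage-like cells. Among alternatives chosen after seeing the data, removal of both copies of shared barcodes gave 1 at day 7 (Klf15) and 1 at day 14 (Klf7, higher) in fibroblast-like cells and 1 and 1 in smooth muscle-like cells, removal of the Saa3 and cell cycle clusters gave 1 (Klf15) in fibroblast-like cells at day 7, and day 3 as the T cell reference gave 1 and 2. The cause was not tested. The median share of cells with a UMI was 9.26% thinned and 34.8% without thinning. Alternatives that left under 20 cells gave no value. No paired analysis was possible because each day is 1 library. The 1 library per day limits every difference between days, and depth limits Klf5, Klf15, the endothelial-like class and T cell-like cells at day 0.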

Other observations

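Across the 24 class-by-day sums, which share libraries and depths, the members' patterns were most like those of the following genes, given as a description over 11166 genes. Klf6 was most like Dusp1, a phosphatase of the immediate early group (r = 0.93), Klf9 most like Fam26e, Map1lc3a and Dsel (0.94 each), and Klf15 most like Ntf3 and Sntg2 (0.97 each). Klf2 was most like Ip6k1 and Abtb1 (0.86 each), Klf4 like Rnd3 (0.84), Klf3 like Msl1 (0.84), Klf7 like Taok1 (0.89), Klf10 like Alox5 (0.87), Klf13 like E4f1 (0.86) and Klf5 like Chac1 (0.83). Between members, Klf9 and Klf15 had the highest r, 0.89, and Klf4 and Klf13 the lowest, -0.41.

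The unnamed cells of day 7 were mostly 1 shallow cluster of 337 cells led by Snhg9, Gm47283 and Oas2, and 372 unnamed cells of that day together held Klf2 at 307 CPM, Klf4 at 254 CPM and Klf6 at 442 CPM, with immediate early genes at 18890 CPM.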
